A study of Mus musculus with 384 samples.

Results

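The axon guidance ligands and receptors are the semaphorins with their plexin and neuropilin receptors, the Slits with their Robo receptors, the netrins and netrin-Gs with Dcc and the Unc5 receptors, and the ephrins with the Eph receptors. They were chosen by gene symbol, and 73 rows of the count table matched, out of 47082 rows in all, of which 41361 held values. A gene was retained when at least 10 cells had at least 10 reads of it, which 45 of the 73 passed, against 12105 genes of the whole table. The cells came from mice carrying DAT IRES Cre and the Ai9 reporter on the C57BL6/J strain, in which cells that express or have expressed Cre from the dopamine transporter locus make tdTomato. Live tdTomato-positive cells were sorted from the midbrain, dissected together with the hypothalamus, of 5 male and 3 female mice between 24 and 36 days of age. The labels give each mouse a C1 batch of its own, so that mouse and C1 batch cannot be told apart. Of 384 cells, the 209 with at least 500000 reads on genes were used (162 from males and 47 from females), with 12 to 45 cells per mouse and a median of 780466 reads per cell.

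These families steer growing axons. A ligand on or from another cell is read by a receptor on the growth cone, which is drawn towards it or turned away, and many of the genes stay on in adult neurons, where they act on synapses. Netrin-1 with its receptor Dcc, the Slits with Robo1 and Robo2, the class 3 semaphorins with neuropilins, and the ephrins with Eph receptors have all been studied in the wiring of midbrain dopamine (DA) neurons. All sorted cells carry the same reporter, so the cells were divided by genes outside these families. Cells with at least 1000 CPM of Th (CPM: the reads of a gene per 1000000 reads on genes), the rate-limiting enzyme of dopamine synthesis, were called Th-rich (181 cells) and the others Th-poor (28 cells). The Th-rich cells were divided by whether they had at least 10 reads of Aldh1a7, Otx2, Neurod6 or Slc17a6, the vesicular glutamate transporter 2. These divisions share cells and mice. All 181 Th-rich cells had at least 10 reads of Slc6a3, the dopamine transporter, as had 24 of the 28 Th-poor cells. For Th, 20 cells lay between 500 and 2000 CPM.

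The cells carried a median of 17 guidance genes with at least 10 reads (range 1 to 27), and the matching rows summed to a median of 2029 CPM per cell. Efna5, which encodes the membrane-anchored ligand ephrin-A5, had at least 10 reads in more cells than any other member, in 186 of 209 cells (89.0%, exact 95% interval 84.0 to 92.9%, counting error only). From 1 read, Sema4b was found in 199 cells, and Efna5 and Epha5 in 196 each. The level of Efna5 over mice was 448 ± 268 CPM (SD, n = 8), lowest at 114 and highest at 960 CPM. Per kilobase of exon it stood at 111 ± 66.5 CPM. The next members were Epha10 (19.9 ± 9.27 CPM per kilobase) and Efnb3 (19.8 ± 8.68), followed by Sema6d (19.0 ± 4.60). These 3 did not differ beyond their spread over mice. The lowest mouse of Efna5 (28.3 CPM per kilobase) overlapped with the highest of Epha10 (34.0).

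Most cells held receptors of several families. Dcc or an Unc5 receptor had at least 10 reads in 197 of 209 cells (94.3%), an EphA receptor in 197, Robo1 or Robo2 in 187 and a class A plexin in 185, whereas an EphB receptor was found in 86 cells (41.1%). A neuropilin, the co-receptor that class 3 semaphorins need to signal through most class A plexins, was found in 79 cells (37.8%, interval 31.2 to 44.8%). Among the 185 cells with a class A plexin, 67 also had a neuropilin. Of the secreted ligands, a Slit was found in 103 cells and a class 3 semaphorin in 60 cells (28.7%).

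Among the semaphorins, the transmembrane Sema6d, a ligand of plexin-A1, led with 137 ± 33.0 CPM and at least 10 reads in 172 cells, and was followed per kilobase by Sema4a (10.1 ± 8.93) and Sema4d (8.60 ± 5.12). Plxnc1, the receptor of Sema7a, was the highest plexin per kilobase (16.4 ± 7.61), with 120 ± 55.6 CPM and 116 positive cells, and Nrp1 (9.65 ± 5.11) and Plxnb2 (4.63 ± 4.63) followed. Of the Robos and Slits, Robo2 had 144 ± 47.4 CPM in 167 cells, Robo1 had 35.6 ± 13.7 CPM in 122 cells, and the secreted ligand Slit2 had 28.5 ± 27.5 CPM in 68 cells. Ntn1, the secreted netrin-1, and its receptor Dcc each reached 10 reads in 164 cells, at 72.7 ± 33.8 and 85.4 ± 44.1 CPM. Unc5c, the receptor through which netrin-1 repels, was found in 114 cells. Epha5 was found in 177 cells and Epha4, which binds both ephrin classes, in 115 cells, with means over mice of 125 ± 54.1 and 72.9 ± 60.7 CPM.

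**Figure D1:**
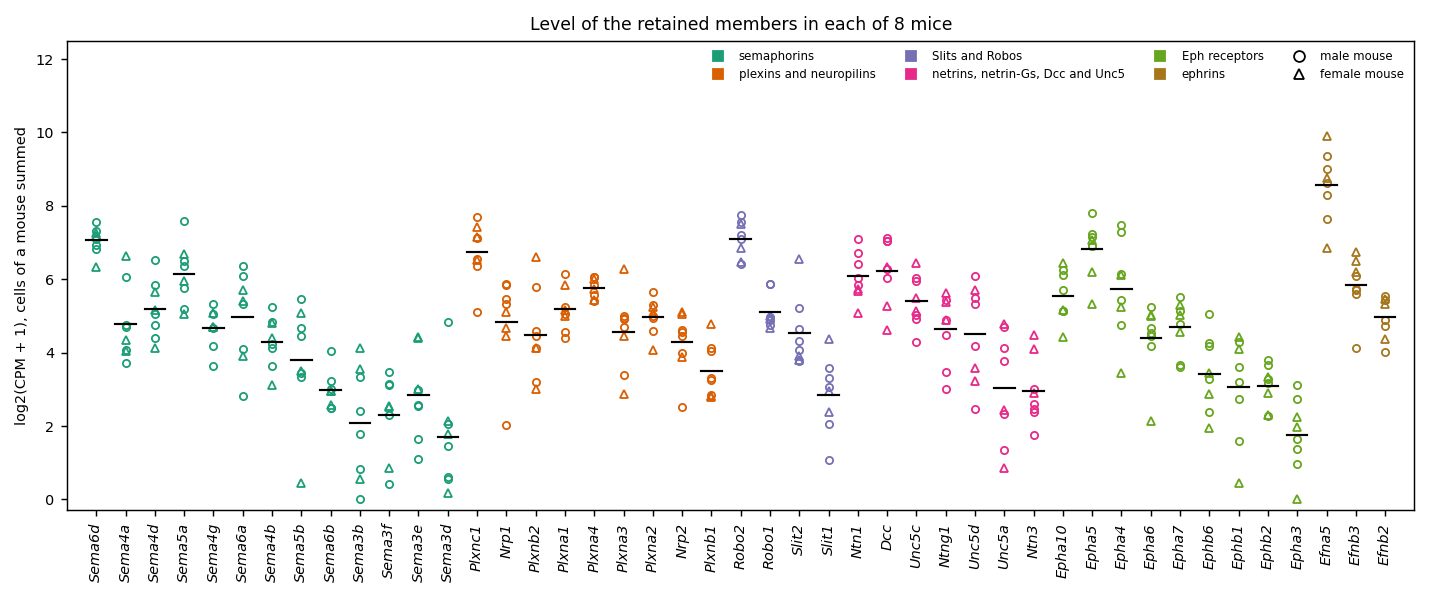
Level of the 45 retained members, as log2(CPM + 1) of the summed cells of each mouse (circles, 5 males; triangles, 3 females), with the mean of these values as a bar and members ordered by level per kilobase within each family. Efna5 stands highest, between 114 and 960 CPM, and the class 3 semaphorins are among the lowest.

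Ligand and receptor genes were also counted together in single cells, over all mice and with no test. Dcc had at least 10 reads in 144 of the 164 cells with Ntn1 (87.8%) and in 20 of the 45 cells without it (44.4%), with shares by mouse of 58.3 to 100% and 0 to 100%. Efna5 was present in 165 of 177 cells with Epha5, one of its receptors, and in 21 of 32 without. Efnb3 was found in 37 of 115 cells with Epha4 (32.2%) and in 54 of 94 without (57.4%), at 12.2 to 81.8% and 0 to 80% by mouse. Robo2 was found in 49 of 68 cells with its ligand gene Slit2 (72.1%) and in 118 of 141 without (83.7%), at 20 to 100% and 54.55 to 97.2% by mouse. Plxna1 was found in 52.3% of cells with Sema6d and 48.6% of cells without. The receptor gene Unc5c was found in 88 of 164 cells with Dcc (53.7%) and in 26 of 45 without (57.8%). Its shares by mouse were 0 to 87.5% in 8 mice and 37.5 to 100% in 6 mice. Sema5a and Sema5b, 2 transmembrane semaphorins with thrombospondin repeats, shared 8 cells: Sema5b was found in 8 of 107 cells with Sema5a and 21 of 102 without. These shares are descriptions over cells, which share mice and depth, and classes of cells were not separated. In Aldh1a7-positive and Aldh1a7-negative Th-rich cells, Epha4 had 10 reads in 86.5 and 43.8%, and Efnb3 in 17.6 and 54.2%. The part of these classes in the shares was not tested.

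At the other end, 28 matching rows were not retained. In 12 of them no cell had 10 reads, which over 209 cells allows a share of up to 1.44% (3 counts of the total): Sema3c, Sema3g, Sema4c, both rows of Sema4f, Robo3, Robo4, Ntn5, Ntng2, Epha1, Epha2 and Efna4. The other 16 had 1 to 9 such cells: Sema3a, Sema6c, Sema7a, Plxnb3, Plxnd1, Plxna4os1 (a transcript antisense to Plxna4), Slit3, Ntn4, Unc5b, Epha8, Ephb3, Ephb4, Efna1, Efna2, Efna3 and Efnb1. Efnb1, with 9 cells, lay just outside the limit, and Sema3b (10 cells) and Sema3d (11 cells) just inside it. Sema3a, a secreted repellent, had 10 reads in 3 of 209 cells (1.44%, interval 0.297 to 4.14%), and its level by mouse lay between 0 and 6.70 CPM.

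In none of the 6 comparisons did a member pass the adjusted threshold of edgeR, and the calls of DESeq2 and limma are given beside those counts. The tests ran over all genes, on counts summed per mouse and class, with adjusted p under 0.05 as the threshold. They used the low-count filter of edgeR on these sums, not the limit of 10 cells, so that Efnb1 between the Th classes and 9 rows between the sexes were tested without being retained. Such a row can pass the filter through the group where it is high, and no difference is read from it. Members are named in the following because 1 of these tools called them or because their unadjusted p was under 0.05, which was decided after their values were seen. Where mice are said not to overlap between groups, no share over all genes is given. Such wording describes the named members only. 

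**Figure D2:**
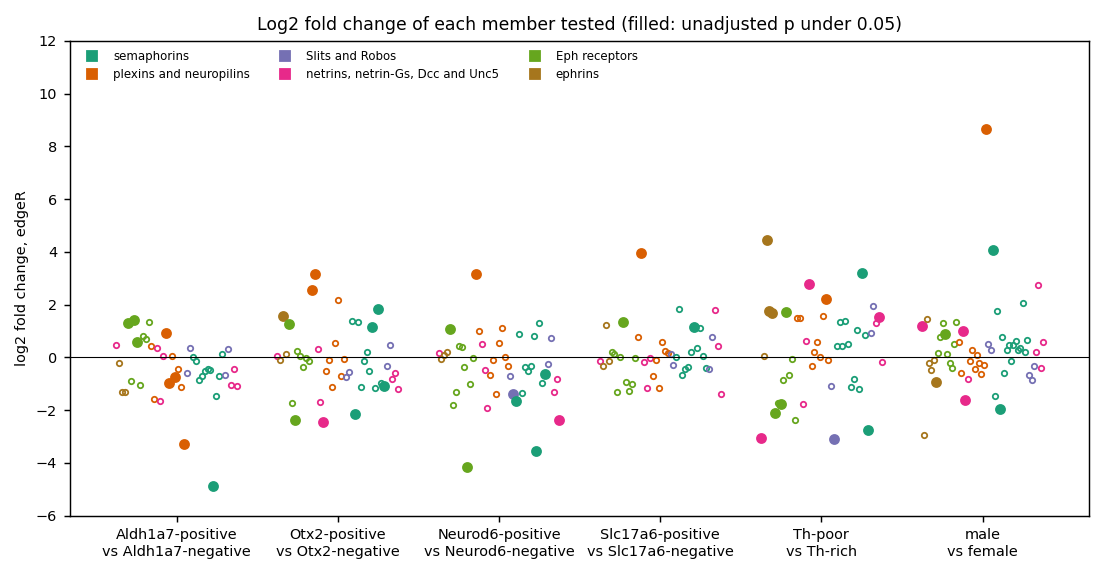
Log2 fold change by edgeR of each matching row tested in the 6 comparisons, coloured by family, with unadjusted p under 0.05 filled. No member passed the adjusted threshold. The highest point is Plxnd1 between the sexes, which was not retained and had no reads in females, so that its size depends on the prior count.

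Aldh1a7 is a retinaldehyde dehydrogenase family gene, and the comparison asks which guidance genes differ between Th-rich cells with and without it. Of the 74 positive cells, 51 had Sox6 and 11 had Otx2, against 22 and 36 of the 107 negative cells. The test used 7 mice. Sema5b was lower in the positive cells of 6 of 7 mice: it had 2.94, 0.856, 0.385, 0.0653, 0, 0.254 and 1.57 CPM in mice 2 to 8, against 40.3, 24.8, 0, 47.4, 21.3, 60.6 and 12.9 CPM in the negative cells. Mouse 4 had none in the negative cells, so that the groups overlapped. The log2 fold change was -4.89 ± 1.03 (SE, edgeR adjusted p = 0.0874), and 1 of 74 positive against 23 of 96 negative cells had 10 reads. Without mouse 2 it was -5.53.

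Plxnc1 was lower in the positive cells of all 7 mice without overlap. Its levels in mice 2 to 8 were 6.48, 2.87, 0, 9.08, 27.8, 1.27 and 67.5 CPM in positive cells and 130, 84.6, 221, 200, 135, 273 and 170 CPM in negative cells. The log2 fold change was -3.29 ± 0.79 (edgeR adjusted p = 0.171), and 9 of 74 against 77 of 96 cells had 10 reads. Without mouse 8, the highest of the positive class, it was -4.32 and was called by edgeR (0.111% of all genes). edgeR called 0 of the 42 members tested, against 0.112% of all genes, and 8 members had an unadjusted p under 0.05, against 7.52% of all genes. DESeq2 called 2 of them, Sema5b and Plxnc1 (1.13% of all genes), and limma called Plxnc1 (0.535%). The other members under the unadjusted threshold were Epha4 (1.41), Epha10 (1.32, and 0.73 without mouse 6), Plxna1 (0.94) and Epha5 (0.58), with higher levels, and Plxna2 (-0.98) and Plxna4 (-0.73), with lower levels. Several summed marker lists had other medians over mice in positive than in negative cells, all with overlapping ranges: GABA (2.54 and 297 CPM, ranges 0.787 to 255 and 1.43 to 1350 CPM), oligodendrocyte (3.30 and 39.9 CPM), glutamate (70.6 and 187 CPM), pan-neuronal (12372 and 8463 CPM) and dopamine neuron markers (17571 and 13266 CPM). Their part in the result was not tested. The median log2 fold change was -0.46 over members and -0.014 over all genes.

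Dcc, the netrin-1 receptor, was also compared by its share of cells. The share of cells with 10 reads was 96.4 ± 9.45% in positive and 82.9 ± 15.4% in negative cells (n = 7 mice), higher in 6 of 7 mice and equal in the other, with a difference of 13.5 percentage points. The exact sign-flip permutation test over mice was p = 0.0312, two-sided, and 0.0625 adjusted over the pair of genes tested, Dcc and Sema3a. A mouse with equal shares does not count in the flips, so that 0.0312 is the smallest p possible here. In cells thinned to 500000 reads the difference was 8.83 points (exact permutation p = 0.234). From 1 read the shares were 96.4 ± 9.45% in positive and 97.6 ± 4.37% in negative cells, both close to 100%, a difference of -1.19 points. From 50 reads the share was 70.2 ± 14.9% in positive and 39.8 ± 14.5% in negative cells, higher in 7 of 7 mice, a difference of 30.3 points (exact permutation p = 0.0156, the smallest that 7 mice allow, and 0.0312 adjusted). The level of Dcc differed by 0.46 ± 0.29 on the log2 scale (edgeR adjusted p = 0.775). For Sema3a the difference was -0.741 percentage points (exact permutation p = 1).

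Otx2 is a homeobox gene of ventral tegmental DA neurons, and 44 positive cells of 6 mice were set against 116 negative cells. Sema6d was lower in the positive cells of every mouse without overlap, at 117, 67.4, 92.2, 76.2, 87.3 and 83.1 CPM in mice 1, 2, 3, 5, 7 and 8 against 265, 151, 170, 244, 164 and 168 CPM. The log2 fold change was -1.10 ± 0.21 (edgeR adjusted p = 0.119). Nrp2, a co-receptor for class 3 semaphorins, was higher in all 6 mice, at 5.62, 69.5, 43.1, 46.7, 26.0 and 34.0 CPM against 0.342, 1.27, 0.691, 1.93, 5.43 and 16.4 CPM (3.14 ± 0.88, edgeR adjusted p = 0.482). The lowest positive value, of mouse 1, lay below the negative value of mouse 8, and without mouse 8 the log2 fold change was 4.33. In all, 22 of 44 against 7 of 116 cells had 10 reads.

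edgeR called 0 of 43 members here, against 0.0407% of all genes, and 10 members had an unadjusted p under 0.05, against 5.25%. DESeq2 called Sema6d and Nrp2 (0.789% of all genes), and limma called Nrp2 (0.366%). The summed GABA markers had a median of 8.93 CPM over mice in positive and 263 CPM in negative cells, with overlapping ranges, and the glutamate markers 236 and 89.2 CPM, and their part in these values was not tested. The other members under the unadjusted threshold were Nrp1 (2.56), Sema6a (1.84, and -0.15 over all retained cells), Efnb2 (1.56, and 0.93 without mouse 3), Epha10 (1.25) and Sema5a (1.15), higher, and Ntng1 (-2.46, and -3.19 without mouse 7), Epha4 (-2.38) and Sema3e (-2.14, and 0.68 with Otx2 from 1 read), lower. Nrp1 was higher in 6 of 6 mice, with 1.94 without mouse 5 and 3.15 without mouse 8. The promoters of the neuropilin genes are shown because both genes stood higher in the Otx2-positive cells of every mouse. They are the 250 bases before a start (GRCm38.p6, plus strand), at chr8:128358823-128359072 for Nrp1 and chr1:62703067-62703316 for Nrp2. The RefSeq span of Nrp1 begins at chr8:128358591, so that its window lies inside that span. The Nrp2 window lies directly before the RefSeq start of the gene. Capitals would mark GGATTA, the core bound by Otx proteins, or CAGATG, an E-box bound by NeuroD proteins, on either strand, and neither window holds them.
Nrp1: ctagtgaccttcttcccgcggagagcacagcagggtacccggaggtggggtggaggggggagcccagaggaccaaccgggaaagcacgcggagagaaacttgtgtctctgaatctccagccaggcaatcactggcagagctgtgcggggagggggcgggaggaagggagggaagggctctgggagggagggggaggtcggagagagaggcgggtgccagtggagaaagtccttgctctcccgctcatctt
Nrp2: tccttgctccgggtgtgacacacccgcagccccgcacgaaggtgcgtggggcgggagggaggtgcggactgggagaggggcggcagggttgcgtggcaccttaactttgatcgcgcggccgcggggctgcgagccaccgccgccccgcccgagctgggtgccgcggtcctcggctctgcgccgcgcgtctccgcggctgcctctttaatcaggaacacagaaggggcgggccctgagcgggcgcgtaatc
GGATTA or its reverse complement was in 6.25% of 32851 such windows and in 2 of the 77 windows of 61 members, those of Robo3 and Robo4, and CAGATG in 14.4% and 6 windows. A missing match says only that these letters are absent from the window.

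Neurod6 encodes a basic helix-loop-helix factor of a ventral tegmental subset, and 47 positive cells of 6 mice were compared with 113 negative cells. Of 181 Th-rich cells, 32 had both Neurod6 and Otx2, so that this and the preceding comparison share positive cells. Nrp1 was higher in the positive cells of every mouse, at 60.4, 101, 17.5, 233, 83.9 and 85.2 CPM in mice 1, 2, 3, 5, 7 and 8 against 0, 23.3, 0.0378, 0.676, 12.9 and 30.3 CPM. Mouse 3 was the lowest of the positive class and fell among the negative values. The log2 fold change was 3.15 ± 1.14 (edgeR adjusted p = 0.722), and 27 of 47 against 12 of 113 cells had 10 reads. It was 2.42 without mouse 5 and 3.77 without mouse 8.

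Sema5b was lower in the Neurod6-positive cells of all 6 mice without overlap, at 0, 7.03, 8.49, 0.190, 0 and 3.11 CPM against 58.6, 36.0, 10.3, 27.3, 87.0 and 16.2 CPM (-3.54 ± 1.07, edgeR adjusted p = 0.492). It was -4.33 without mouse 3 and -2.85 without mouse 7. The summed GABA markers had a median of 51.6 CPM in positive and 251 CPM in negative cells, with overlapping ranges, and the glutamate markers 219 and 115 CPM, and their part in these values was not tested. edgeR called 0 of 43 members, against 0.00807% of all genes, and 8 had an unadjusted p under 0.05, against 5.55%. DESeq2 called Sema5b (0.888% of all genes) and limma called Nrp1 (0.436%). Robo2 (-1.38) was lower in all 6 mice, and Epha10 (1.08) higher in all 6. Ephb1 (-4.14, and -2.66 without mouse 1), Unc5d (-2.39), Sema3e (-1.64) and Sema6d (-0.65) were the other members under the unadjusted threshold.

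Slc17a6 loads glutamate into vesicles, and 93 positive cells of 8 mice were set against 88 negative cells. Of the 47 Th-rich cells with Otx2, 43 also had Slc17a6, so that this comparison and that of Otx2 share positive cells. Nrp2 was higher in the positive cells of 8 of 8 mice, at 2.96, 39.8, 13.7, 46.2, 22.6, 30.3, 21.8 and 28.4 CPM against 0.531, 0.727, 1.39, 0.352, 4.26, 0.167, 1.87 and 3.53 CPM in mice 1 to 8. Mouse 1 was the lowest positive value and lay below 2 of the negative values. The log2 fold change was 3.95 ± 0.69 (edgeR adjusted p = 0.0637), and 30 of 93 against 4 of 88 cells had 10 reads. Without mouse 1 edgeR called Nrp2 (0.0329% of all genes), as it did with cells from 100000 reads, with positives from 1 read and over all retained cells. With the cells and limits given above, edgeR called 0 of 42 members, against 0.0169% of all genes, and 3 had an unadjusted p under 0.05, against 5.05%. DESeq2 (0.229% of all genes) and limma (0.22%) each called Nrp2. The summed GABA markers had a median of 285 CPM in positive and 42.2 CPM in negative cells, with overlapping ranges, and the oligodendrocyte markers 38.5 and 5.97 CPM, and their part in these values was not tested. Epha6 (1.34) and Sema5a (1.16) were higher in 7 and 8 of 8 mice.

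**Figure D3:**
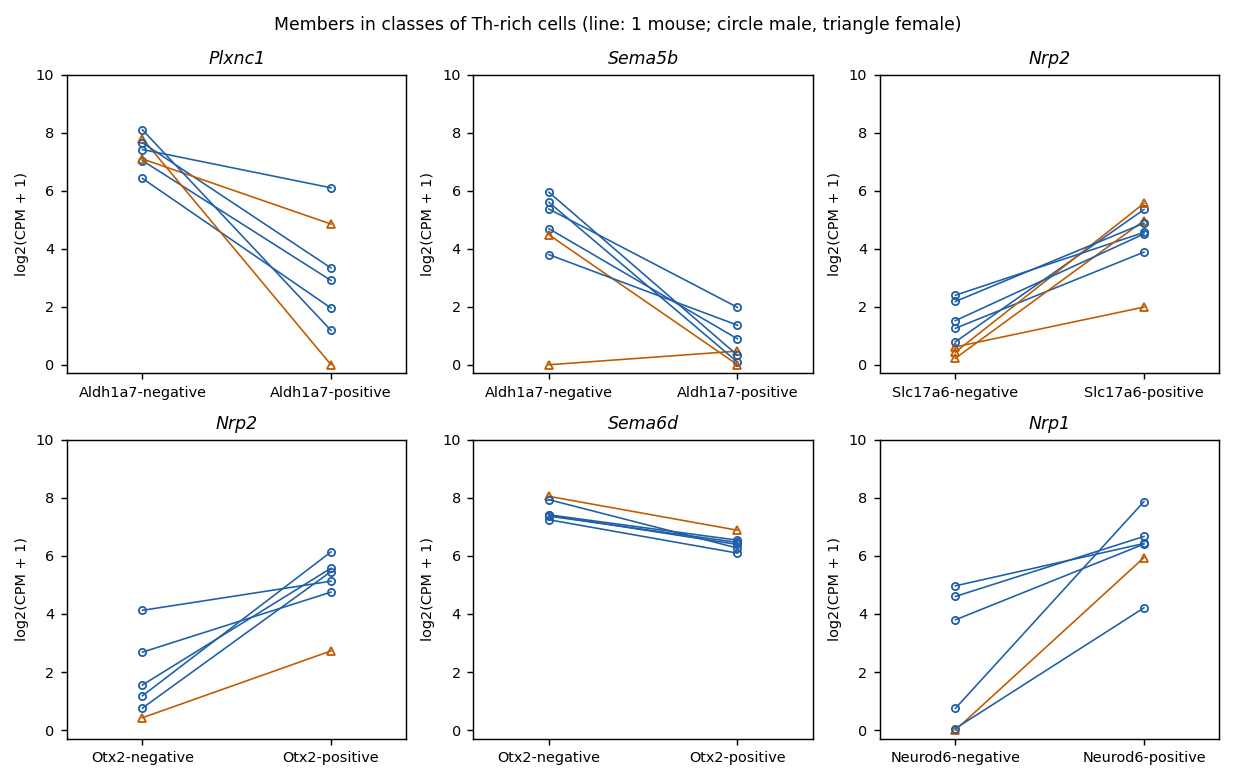
Level as log2(CPM + 1) of 6 members in the negative (left) and positive (right) class of Th-rich cells, with a line for each mouse. Plxnc1 was lower in Aldh1a7-positive cells in all 7 mice, and Nrp2 was higher in Slc17a6-positive cells in all 8.

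Th-poor and Th-rich cells were compared in 5 mice, with 24 and 95 cells. Of the 28 Th-poor cells, 20 had Slc17a6, 17 Tac1, 17 Nos1 and 4 Gad1. Their summed non-neuronal markers reached 500 CPM in 6 cells, against 2 among the Th-rich cells. In 1 mouse the astrocyte markers summed to 1537 CPM in Th-poor cells, against at most 1.59 CPM in Th-rich cells. Fewer cells of a type and less RNA per cell cannot be told apart in these sums.

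Dcc, the Slit receptor Robo2, Sema6d and Epha5 had lower levels in the Th-poor cells. The summed pan-neuronal markers were also lower there without overlap, at 3012 to 5765 CPM against 7086 to 11677 CPM. So were the dopamine neuron markers, a list that includes Th, at 1310 to 2930 CPM against 13686 to 17640 CPM. The glutamate markers had medians of 536 and 139 CPM, with overlapping ranges. The part of these markers in the values was not tested. Dcc stood at 0.869, 13.8, 2.26, 32.6 and 0.794 CPM in Th-poor cells of mice 1, 2, 4, 5 and 6, against 36.4, 72.4, 58.0, 151 and 108 CPM in Th-rich cells, without overlap (-3.05 ± 0.98, edgeR adjusted p = 0.306). Robo2 stood at 2.17, 62.9, 0, 29.2 and 8.73 CPM against 135, 148, 286, 202 and 152 CPM (-3.09 ± 1.02, edgeR adjusted p = 0.321). Sema6d stood at 26.3, 59.2, 1.93, 24.5 and 7.67 CPM against 223, 119, 124, 205 and 194 CPM (-2.77 ± 0.70, edgeR adjusted p = 0.168). Robo2 and Sema6d were also without overlap between the classes. Without mouse 2, Robo2 was at -4.29 and Sema6d at -3.60, and without mouse 5 Dcc was at -3.88. Epha5 was lower in 4 of 5 mice (-1.77 ± 0.59, edgeR adjusted p = 0.324) and Epha10 in 5 of 5 (-2.11 ± 0.74, and -1.52 without mouse 6).

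Ntng1, a membrane-anchored netrin-G, was higher in all 5 mice without overlap, at 82.4, 207, 127, 29.5 and 54.8 CPM against 17.2, 17.8, 2.59, 20.5 and 19.2 CPM (2.78 ± 0.66, edgeR adjusted p = 0.13). Of the ephrin-B ligands, Efnb2 was higher in 5 of 5 mice (1.75 ± 0.60) and Efnb3 in 4 of 5 (1.70 ± 0.45). Efnb1 was not retained, and no difference is read from it. It stood at 2.83, 5.29, 24.8, 101 and 0.794 CPM in Th-poor cells, where 4 of 24 cells had 10 reads. Sema6a (3.19 ± 0.89), Epha7 (1.73 ± 0.58) and Plxnb2 (2.21 ± 1.02, and 1.59 without mouse 1) were higher in 4 of 5, and Unc5c (1.52 ± 0.60, and 2.13 without mouse 4) in 5 of 5. edgeR called 0 of the 43 retained members tested, against 0.424% of all genes, and 12 of the 43 had an unadjusted p under 0.05, against 9.35%. DESeq2 called 8 of the 43 (3.23% of all genes): Ntng1, Sema6a, Epha7, Efnb2 and Efnb3 were higher, and Dcc, Robo2 and Sema6d were lower. limma called 4 (1.12%), namely Sema6d, Dcc, Robo2 and Epha5. The median log2 fold change was 0.43 over the 44 rows tested and 0.10 over all genes. Without the cells at 500 CPM of non-neuronal markers, the fold changes were -2.98 for Dcc, -2.93 for Robo2, -2.48 for Sema6d, 3.00 for Ntng1 and 1.91 for Efnb3, and Plxnb2 moved from 2.21 to 0.47.

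**Figure D4:**
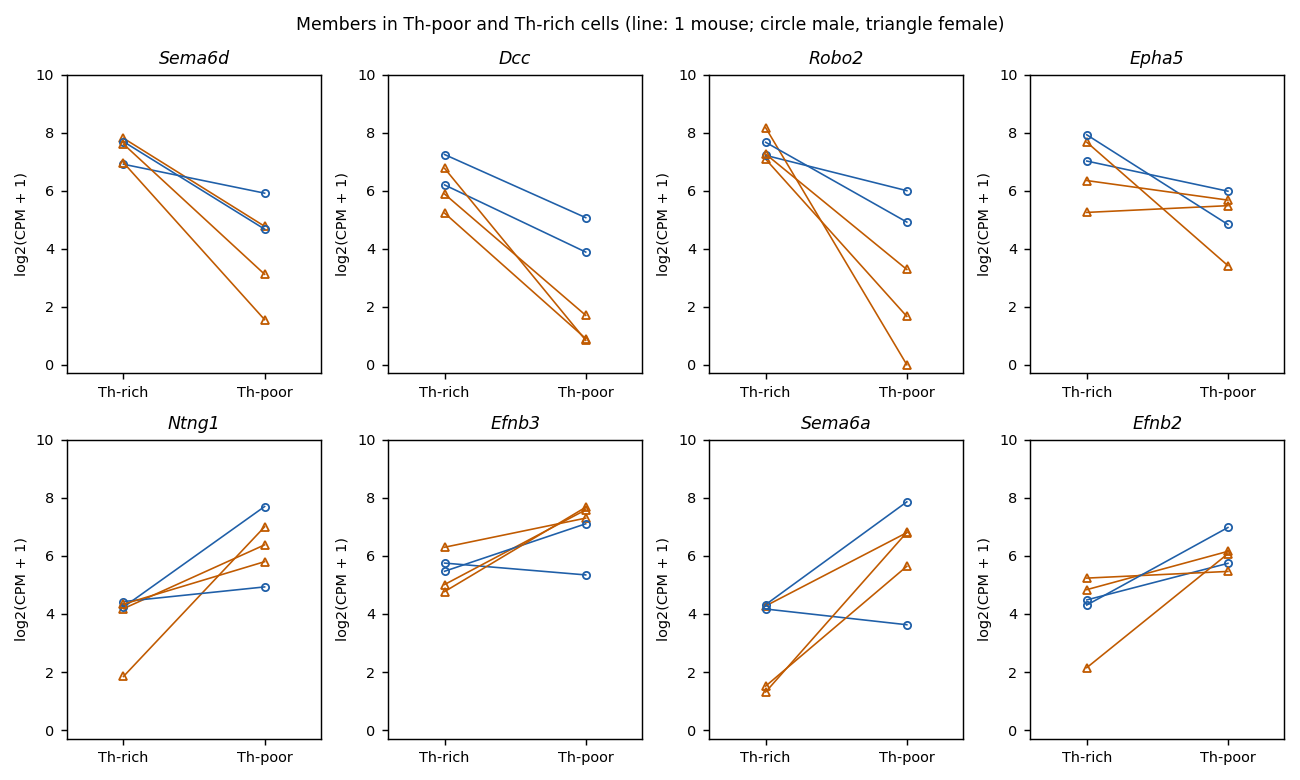
Level as log2(CPM + 1) of 8 members in Th-rich (left) and Th-poor (right) cells of 5 mice, with a line for each mouse. Dcc, Robo2 and Sema6d were lower and Ntng1 and Efnb2 higher in the Th-poor cells of every mouse.

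Males and females were compared over 5 and 3 mice. The summed dopamine neuron markers stood at 11863 to 17330 CPM in males and 9222 to 11806 CPM in females, without overlap. Oligodendrocyte markers reached 2082 CPM in a male, and astrocyte markers 554.5 CPM in a female. The part of these markers in the values was not tested. Ntn1 stood at 84.5, 56.4, 135, 105 and 65.0 CPM in the males and 32.5, 50.1 and 52.2 CPM in the females, without overlap (0.99 ± 0.32, edgeR adjusted p = 0.512). Dcc stood at 64.8, 77.0, 140, 131 and 130 CPM in males and 23.6, 37.6 and 80.1 CPM in females, with overlap (1.20 ± 0.42, edgeR adjusted p = 0.526). Without mouse 6 it was 1.84. Epha5 (0.89) was the other retained member higher in males under the unadjusted threshold. Sema3e (-1.97), Ntn3 (-1.61) and Efnb3 (-0.92) were lower, Sema3e and Efnb3 without overlap. Sema3a and Plxnd1, which were not retained, had at most 6.70 and 7.80 CPM in a mouse, and no difference is read from them. Th-poor cells were 15 of 47 female and 13 of 162 male cells, and within Th-rich cells the fold changes were 0.51 for Ntn1, 0.71 for Dcc, 0.50 for Epha5, -0.13 for Efnb3, -1.32 for Sema3e and -1.61 for Ntn3. edgeR called 0 of the 45 retained members and 0 of the 9 other rows, against 0.0322% of all genes, and 6 of the 45 had an unadjusted p under 0.05, against 8.12%. DESeq2 (1.22% of all genes) and limma (0.155%) called none. Over the 5 mice of the C1 machine that ran both sexes, the fold changes were 1.08 for Ntn1, 1.05 for Dcc, 0.68 for Epha5, -0.58 for Efnb3, -2.39 for Sema3e and -1.23 for Ntn3, with no gene called by edgeR. The other machine ran 1 sex, and age also differed between the groups, so that sex, age and machine cannot be fully told apart.

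Of 55 further genes of the guidance pathways, such as adhesion partners and collapsin response mediators, 45 to 50 were tested per comparison. edgeR called none of them in any comparison, and 3 to 7 had an unadjusted p under 0.05, where 5.05 to 9.35% of all genes did. DESeq2 called Mical2, an oxidase downstream of plexins, between the Aldh1a7 classes (-1.62 by DESeq2, where 1.13% of all genes were called) and Ngef, the guanine nucleotide exchange factor ephexin, between Th-poor and Th-rich cells (3.72 by DESeq2, where 3.23% were called). limma called none.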

How the data were processed

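Single cells were captured on the Fluidigm C1 with SMARTer chemistry and Nextera XT libraries. Per the labels, the authors used Trimmomatic 0.3.2 for trimming, TopHat2 2.1.1 for alignment (mouse build GRCm38) and featureCounts 1.5.0-p3 for the deposited raw counts of RefSeq genes, without molecular identifiers. Reads shared by several genes were not counted, and amplification before sequencing means that reads are not independent molecules. Rows without a value (5721) and transgene and spike-in rows (0.00457% of reads) were left out. Each sample is 1 cell and the replicate is the mouse. Sex was taken from the label of each sample; the series description gives other numbers of males and females. Counts were summed per mouse and class, for mice with at least 3 cells in both classes, and tested with edgeR 4.0.16 (quasi-likelihood, TMM, low-count filter, Benjamini-Hochberg over all genes), with DESeq2 1.42.0 and limma 3.58.1 (mean log2(CPM + 1) of cells) as alternatives. SE is the size of the log2 fold change divided by the square root of F. The classes of a comparison come from the same mice. Deviations from the class means correlated between the classes of a mouse at 0.021 to 0.298, and the mouse was a block only in an alternative. CPM are of summed raw counts. Exon lengths came from GENCODE M21, another annotation than that counted, and 3′ bias makes levels per kilobase approximate. The scripts were tested on simulated data. The genes, lists and classes were chosen with earlier results of these data known. Genes named were Sema3a, Dcc, the 3 highest members per kilobase of each family, members past the adjusted threshold (none), and, after values were seen, those past it by DESeq2 or limma or with an unadjusted p under 0.05. Intervals cover counting error only.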

Additional observations from a re-analysis of the deposited data

Results flagged for a closer look

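Of 55 groups of 5 to 8 mice, 5 held a mouse that stood apart from the others by Dixon's criterion, and chance alone gives about 1 in 20. Slit2 was at 93.6 CPM in mouse 1, against at most 36.2 CPM in the others. Plxnc1 was at 67.5 CPM in the Aldh1a7-positive cells of mouse 8, against at most 27.8 CPM. Nrp2 was at 16.4 CPM in the Otx2-negative cells of mouse 8, against at most 5.43 CPM. Ntng1 was at 2.59 CPM in the Th-rich cells of mouse 4, the lowest, against at least 17.2 CPM. Efnb1 was at 101 CPM in the Th-poor cells of mouse 5, against at most 24.8 CPM. The cause of these values was not tested.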

How the results depend on the processing

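edgeR called 0 members in each comparison. DESeq2 called 2 for Aldh1a7, 2 for Otx2, 1 for Neurod6, 1 for Slc17a6 and 8 for Th (9 rows with Efnb1, which was not retained and from which nothing is read), and limma called 1, 1, 1, 1 and 4. For Aldh1a7, cells from 100000 reads gave 1 (Sema5b, 0.217% of all genes), thinned cells 2 (Nrp2 and Sema5b, 0.198%) and all retained cells 1 (Sema5b, 0.407%). For Slc17a6, cells from 100000 reads, positives from 1 read and all retained cells gave 1 each (Nrp2), with 0.0162, 0.043 and 0.0244% of all genes called. For Th, cells from 100000 reads gave 3 (0.704%) and a Th limit of 300 CPM gave 1 (Sema6d, 0.777%). Leaving out a mouse gave 0 to 1 for Aldh1a7 (Sema5b without mouse 4, 0.139% of all genes, and Plxnc1 without mouse 8), 0 to 1 for Slc17a6 (Nrp2 without mouse 1) and 0 elsewhere. With the mouse as a replicate block 0 members were called in all 5 class comparisons. Fold changes of named members moved with the block. Between the Neurod6 classes Nrp1 was at 4.785 and Sema5b at -4.40, further from 0 than in the main fit. Between the Aldh1a7 classes Plxnc1 was at -4.385, also further from 0, and Epha10 at 0.99, nearer to it. The cause of these differences was not tested. The share of cells with Dcc differed by 8.83 points when thinned (exact permutation p = 0.234), by -1.19 from 1 read, by 30.3 from 50 reads (exact permutation p = 0.0156), and by 11.1 to 15.8 with a mouse left out. The exact permutation p was 0.0625 in 6 of 7 of these cases, the smallest possible there because mouse 4 had equal shares. Without mouse 4 it was 0.0312. For Sema3a the difference was -6.10 points from 1 read (exact permutation p = 0.4375) and -2.15 when thinned (exact permutation p = 0.25). It was 0.0525 points from 50 reads and -1.91 to 0.116 with a mouse left out. Of 929 alternative fold changes, 14 changed sign: for Dcc between the Otx2 classes, without a filter (-0.015), by limma (-0.026), with positives from 1 read (-0.098), without cells high in non-neuronal markers (-0.0197), and without mouse 1, 7 or 8 (-0.026, -0.11 and -0.014), over a range of -0.11 to 0.18 with a mouse left out; for Dcc between the Slc17a6 classes, by limma (0.26), with the replicate block (0.13), with positives from 1 or 50 reads (0.11 and 0.0027) and without mouse 7 (0.086), over a range of -0.37 to 0.086 with a mouse left out; for Sema3e with Otx2 from 1 read (0.68); and for Sema6a over all retained cells for Otx2 (-0.15). Limits of 500 CPM of non-neuronal markers and of Th-rich cells between the sexes were chosen after seeing the data. At least 5 cells per class left 2 mice for Th, below the minimum of 3 mice chosen for a test, and was not run. Cells of a mouse share a run, and 12 matching rows reached 10 reads in no cell.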
